A study of Mus musculus with 2 samples.

Results

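The cells described are those that the authors' cell table annotates pre.L, a stage name read here as preleptotene spermatocytes, in single-cell RNA-seq of testis from adult C57BL/6 mice. The annotation was taken as deposited and coincides with the authors' cluster 18, which holds 0 cells of any other stage. It covers 494 of 17253 annotated cells. Of these, 482 are among the 8833 cells of the library labelled Zfp541-/-, which is 5.46% (95% exact binomial interval 4.99 to 5.95), and 12 are among the 8420 cells of the WT library, which is 0.143% (0.0737 to 0.249). Both libraries came from digested testis, which the titles call whole testis and the source and protocol fields a sort of tetraploid germ cells, with 1 library per genotype, so the sort bears on these shares and no test between genotypes can be made. The labels do not say how the Zfp541 allele was made, how many mice were pooled or whether they were littermates. The comparisons were therefore made inside the library labelled Zfp541-/-, between the 482 cells annotated pre.L and their neighbours in the annotation: the 540 cells of the last stage of differentiating spermatogonia (Diff.Spg3) and the 882 leptotene cells (L). Cells of 1 library are not replicates, and the stages were named from clusters of the same genes, so all differences below are descriptions with counting error only.

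Preleptotene is the stage in which a male germ cell leaves the mitotic programme, copies its DNA for the last time before meiosis and loads the cohesin and axis proteins on which chromosomes will pair. Retinoic acid and the transcription factors STRA8 and MEIOSIN (Gm4969 in the files) switch on meiotic genes at this point, and MEIOC with YTHDC2 removes transcripts of the mitotic cell cycle. Double-strand breaks, synapsis and recombination follow in leptotene and zygotene.

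The regulatory sequences most relevant to such a switch are promoters, and 6 are shown, because they hold a word recognised by a regulator of this transition in genes described below. The windows run from 180 bases before the annotated start to 20 bases after it, on the coding strand, taken from RefSeq promoters of build GRCm38.p6. Capitals mark exact matches on either strand of the STRA8 word CNCCTCAG, reported from mouse testis, or of 4 E2F words (TTTCCCGC, TTTGGCGC, TTTCGCGC and TTTGCCGC), the sites of the factors that drive S-phase genes. M1ap lies at chr6:82946742-82946941 (plus strand), Tex12 at chr9:50561249-50561448 (minus strand), Cdk2 at chr10:128705032-128705231 (minus strand), Gins3 at chr8:95633379-95633578 (plus strand), Mcm6 at chr1:128359686-128359885 (minus strand) and Mcm5 at chr8:75109329-75109528 (plus strand).
M1ap: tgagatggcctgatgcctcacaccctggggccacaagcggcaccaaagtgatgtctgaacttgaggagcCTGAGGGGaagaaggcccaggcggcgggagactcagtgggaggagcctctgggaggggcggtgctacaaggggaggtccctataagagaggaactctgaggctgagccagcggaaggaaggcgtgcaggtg
Tex12: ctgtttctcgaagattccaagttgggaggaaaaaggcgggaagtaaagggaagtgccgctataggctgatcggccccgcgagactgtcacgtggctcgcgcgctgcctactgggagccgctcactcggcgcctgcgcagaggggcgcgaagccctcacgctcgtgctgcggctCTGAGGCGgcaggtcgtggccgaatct
Cdk2: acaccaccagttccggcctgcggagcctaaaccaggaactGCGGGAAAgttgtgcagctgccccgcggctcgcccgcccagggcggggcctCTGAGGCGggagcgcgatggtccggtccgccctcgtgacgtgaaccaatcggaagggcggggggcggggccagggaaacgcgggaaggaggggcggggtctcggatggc
Gins3: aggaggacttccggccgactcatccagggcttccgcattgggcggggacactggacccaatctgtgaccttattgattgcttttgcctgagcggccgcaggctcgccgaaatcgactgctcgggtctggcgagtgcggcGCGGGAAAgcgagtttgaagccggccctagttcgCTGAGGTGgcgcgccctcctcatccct
Mcm6: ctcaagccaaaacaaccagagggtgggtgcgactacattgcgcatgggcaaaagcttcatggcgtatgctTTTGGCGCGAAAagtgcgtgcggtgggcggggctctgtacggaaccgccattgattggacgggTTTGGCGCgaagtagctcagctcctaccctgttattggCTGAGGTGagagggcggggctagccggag
Mcm5: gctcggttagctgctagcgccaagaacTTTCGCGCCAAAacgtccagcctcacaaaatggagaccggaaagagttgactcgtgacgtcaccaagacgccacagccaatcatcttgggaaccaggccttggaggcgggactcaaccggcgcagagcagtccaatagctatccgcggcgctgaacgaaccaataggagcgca
M1ap and Tex12 hold the STRA8 word, with its first base at -111 and -7 from the start. Cdk2 and Gins3 hold both kinds of word. In Mcm6 a pair of overlapping E2F words begins at -110 and -106, another begins at -47, and a STRA8 word begins at -9. In Mcm5 the 2 E2F words, at -153 and -149, overlap. A match is a run of letters and was not tested for binding. No promoter was found for Gm4969, Spo11, Meiob or Ccdc36. The promoters shown were picked for their words and are not typical. Those read for Stra8, Rec8 and Prdm9 held neither kind of word in 300 bases. Of 13 promoters of the genes that stood out most in pre.L, 2 held the STRA8 word and 1 an E2F word.

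The 482 cells held 1816600 unique molecular identifiers (UMIs, one per captured RNA molecule), and levels are given as UMIs per 1000000 of a stage's total (CPM), near the 3' end of each transcript. The median cell had 3573 UMIs and 1906 genes, between Diff.Spg3 (5210 UMIs) and L (2276 UMIs). Mitochondrial UMIs were above 5% in 74.1% of pre.L cells, 49.8% of Diff.Spg3 cells and 77.0% of L cells, and the part of this in the results was not tested beyond leaving those cells out. Leaving them out also changed the mix of earlier and later pre.L cells. In the finer clusters described below, 62.2% of the earlier cells (cluster 29) and 85.7% of the later cells (cluster 20) were above 5%. Markers of elongating spermatids and of somatic cells were near 0: pre.L had 0 UMIs of all 7 elongating spermatid markers, 0 of 3 endothelial and 0 of 3 red cell markers, 6 UMIs over 5 Leydig markers, 6 UMIs over 5 macrophage markers (Cd74 alone, in 1 cell) and 64 UMIs over 7 Sertoli markers, 35 of them Cst12, with Wt1 at 0. The pre.L cells were chosen by their expression cluster, so these low counts do not measure how well the sort worked. The 8 pachytene markers summed to 729 CPM in Diff.Spg3, 875 CPM in pre.L and 1416 CPM in L, and Pgk2 was at 0 in pre.L. Of the libraries' annotated barcodes 17 occur in both, and 1 of them is annotated pre.L in the library labelled Zfp541-/-. Zfp541 itself was detected in that library: its pre.L cells had 50 UMIs (27.5 CPM) against 1 UMI in the WT pre.L cells, and in mid pachytene it stood at 81.9 CPM in the library labelled Zfp541-/- against 28.1 CPM in WT. A tag at the 3' end that lies outside the deleted part checks nothing, and the labels do not name the deleted part.

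The stage name was checked against 6 markers: Stra8, Rec8, Gm4969, Prdm9, Mcm6 and Hells. All 6 stood highest in pre.L among the 9 stages from the first differentiating spermatogonia to late pachytene. Stra8 had 251 CPM in Diff.Spg3, 1184 CPM in pre.L and 44.9 CPM in L. Gm4969, the partner of STRA8, had 8.02 CPM in Diff.Spg3, 90.8 CPM in pre.L and 23.8 CPM in L. Both were lower in the stages on each side, although Stra8 was also at 551 CPM in Diff.Spg1 and 593 CPM in Diff.Spg2. Prdm9, the methyltransferase that marks recombination hotspots, had 25.4 CPM in Diff.Spg3, 198 CPM in pre.L and 67.3 CPM in L. Rec8, a meiotic cohesin subunit, had 20.7 CPM in Diff.Spg3, 26.4 CPM in pre.L and 0.440 CPM in L, with 1 UMI in L, so it was nearly as high in Diff.Spg3 and nearly at 0 in L (log2 ratio over L 5.34, counting interval 3.36 to 11.24). Without cells above 5% mitochondrial UMIs its log2 ratio over Diff.Spg3 was 1.15 in place of 0.35. Hells, a chromatin remodeller that acts with PRDM9, had 949 CPM in Diff.Spg3, 1468 CPM in pre.L and 1215 CPM in L, and Mcm6, a subunit of the replicative helicase, had 148 CPM in Diff.Spg3, 169.5 CPM in pre.L and 74.8 CPM in L. The intervals of Mcm6 and of Rec8 in pre.L overlapped those in Diff.Spg3. Hells and Mcm6 were also high in earlier spermatogonia, at 960.5 and 149.5 CPM in Diff.Spg2. In sums over lists, 14 S-phase markers had 2688 CPM in Diff.Spg3, 3351 CPM in pre.L and 2151 CPM in L, and 13 leptotene-zygotene markers had 1541 CPM in Diff.Spg3, 7113 CPM in pre.L and 10444 CPM in L. Against Diff.Spg3 the S-phase list was divided, with 3 of 14 members at least 2-fold higher in pre.L, 3 lower and a median log2 ratio of 0.00, and against L 7 of 13 measured members were higher and 0 lower, with a median of 1.03. Of 12 measured leptotene-zygotene markers, 11 were higher and 0 lower than in Diff.Spg3 (median 2.49). Against L, 2 were higher, 3 lower and 7 within 2-fold (median -0.65). Prdm9 is on this list and also among the 6 pre.L markers. Sums without the member most abundant in pre.L were added after seeing the data, for the S-phase and differentiating spermatogonia lists only. Without Hells, the S-phase sums were 1738 CPM in Diff.Spg3, 1883 CPM in pre.L and 935 CPM in L. Without Stra8, the other 10 markers of differentiating spermatogonia had 1707 CPM in Diff.Spg3, 620.4 CPM in pre.L and 235 CPM in L. Other genes separated pre.L from all other cells of the library by a larger fold: Fgf11, Nacad, Stxbp5l, Rhd, Rad21l, Tslrn1, Atp1b2, Aph1b, Pth2 and Syt7 led, and none of the 6 markers or of any other marker list was among these 10. Of 4870 genes ranked, Stra8 was 21, Prdm9 36, Gm4969 323, Hells 487 and Mcm6 561, and Rec8, below 50 CPM, was not ranked. The cells' median of 3573 UMIs was below the 10905 of the whole library but lay between those of Diff.Spg3 (5210) and L (2276). The name is used here only as the authors' annotation.

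**Figure D1:**
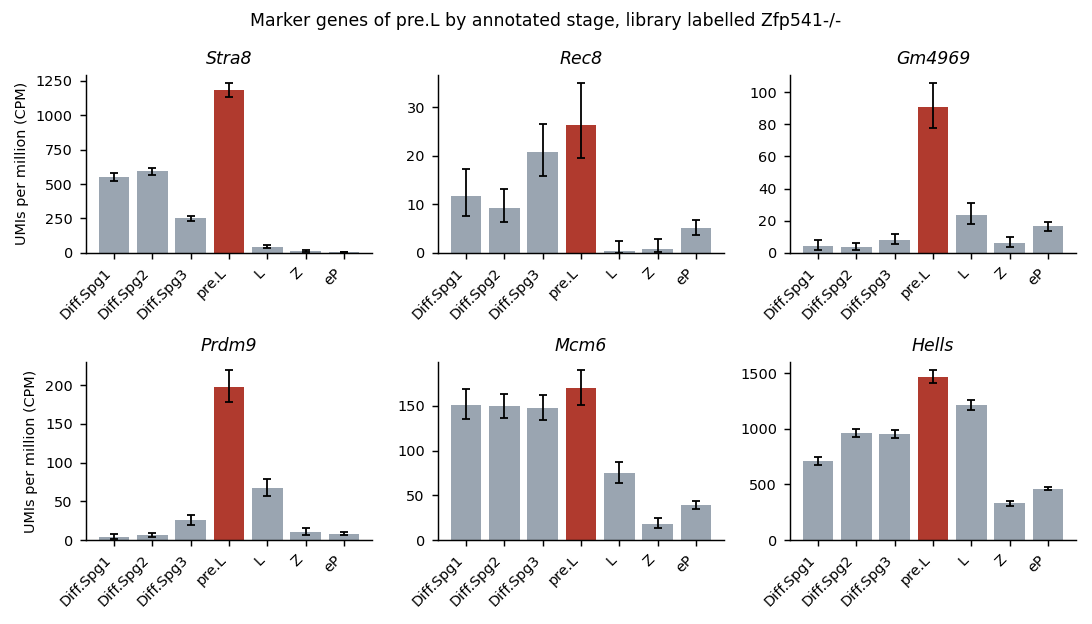
Level of each of the 6 marker genes (bars, CPM) in the cells of 7 consecutive annotated stages of the library labelled Zfp541-/-, with 95% exact Poisson intervals for counting error; pre.L is in red. Stra8 reached 1184 CPM in pre.L, against 251 CPM in Diff.Spg3 and 44.9 CPM in L, whereas Mcm6 and Hells were also high in the spermatogonial stages.

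Over all genes with at least 20 CPM in the higher stage, 1173 of 7119 (16.5%) were at least 2-fold higher in pre.L than in Diff.Spg3 and 1309 (18.4%) at least 2-fold lower. Against L, 858 of 6907 (12.4%) were higher and 960 (13.9%) lower. The median log2 ratio over all these genes was -0.04 against Diff.Spg3 and -0.10 against L, and the lists below are read beside these medians. Ratios are of CPM, pre.L over the neighbour, after adding 0.5 counts to each sum, and the intervals given with them are 95% exact intervals for counting error.

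The STRA8 and E2F words above were also counted over all promoters found. Over windows of 300 bases (250 before the start and 50 after it), the STRA8 word was in 173 of the 930 promoters found for genes at least 2-fold higher in pre.L than in Diff.Spg3, which is 18.6%. It was in 70 of 1032 promoters of genes at least 2-fold lower (6.78%), in 608 of 5712 promoters of all genes measured (10.6%), and in 7.97% of the 27025 promoters of the table. Against L, the word was in 15.6% of 698 promoters of higher genes and 5.82% of 773 promoters of lower genes. The E2F words were in 9 of 16 promoters of origin licensing and helicase genes (56.25%) and in 5 of 27 promoters of DNA synthesis genes (18.5%), against 5.32% of the measured genes. They were in 5.81% of promoters of genes higher in pre.L than in Diff.Spg3, 4.07% of those lower and 4.26% of those higher than in both neighbours.

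Among 11 genes of meiotic entry, 4 were at least 2-fold higher in pre.L than in Diff.Spg3 and 3 lower, with a median log2 ratio of 0.66. The higher ones were Stra8, Gm4969, Meioc and Ythdc2, and the lower ones were Dmrt1, Dmrtb1 and Sohlh1. Stra8 was higher than in Diff.Spg3 by a log2 ratio of 2.23 (2.12 to 2.36) and higher than in L by 4.71 (4.43 to 5.02). Meioc had 179.8 CPM in Diff.Spg3, 564 CPM in pre.L and 357 CPM in L, and Ythdc2, its helicase partner, had 129.7 CPM in Diff.Spg3, 268 CPM in pre.L and 316 CPM in L. Unlike Stra8, both stayed within 2-fold of pre.L in L. Dmrt1, which holds back meiosis in spermatogonia, had 187 CPM in Diff.Spg3, 52.3 CPM in pre.L and 3.52 CPM in L, a log2 ratio of -1.83 against Diff.Spg3 and 3.81 against L. Against L, 3 of 10 measured members were higher (Stra8, Gm4969 and Dmrt1) and 0 lower. The RNA-binding genes Dazl, Mael and Rbm46 were within 2-fold of both neighbours. Of 17 genes of retinoid metabolism and signalling only 4 reached 20 CPM in the comparison with Diff.Spg3: Rdh10 and Aldh1a2, which make retinal and retinoic acid, were higher (log2 1.57 and 1.32), Crabp1, a retinoic acid binding protein, was lower (-3.04), and Rxrb was at 0.17. Against L, 1 of 5 was higher (Crabp1) and 1 lower (Rdh11). Stra6 had 0 UMIs in all 3 stages.

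Replication genes were about as high in pre.L as in the last spermatogonia and higher than in leptotene. Of 22 origin licensing and helicase genes, 4 were at least 2-fold higher in pre.L than in Diff.Spg3 and 2 lower, with a median of 0.17, and against L 8 of 21 were higher and 0 lower, with a median of 0.64. DNA synthesis genes gave 4 higher and 4 lower of 30 against Diff.Spg3 (median 0.09), and 9 higher and 0 lower of 29 against L (median 0.68). Mcm5 had 119 CPM in Diff.Spg3, 260.4 CPM in pre.L and 128 CPM in L, and was thus higher than both neighbours. Mcm2, another subunit of the same helicase ring, had 139.7 CPM in Diff.Spg3, 51.7 CPM in pre.L and 7.48 CPM in L. Mcm5 and Mcm2 therefore differed from Diff.Spg3 in opposite directions, with log2 ratios of 1.13 (0.93 to 1.33) and -1.43 (-1.77 to -1.11). Cdt1, the licensing factor that loads the helicase in G1, had 56.8 CPM in Diff.Spg3, 6.06 CPM in pre.L and 2.20 CPM in L. Gins3, a subunit of the active helicase, had 16.0 CPM in Diff.Spg3, 56.7 CPM in pre.L and 17.2 CPM in L, and Tipin, of the fork protection complex, had 280.4 CPM in Diff.Spg3, 677 CPM in pre.L and 407 CPM in L. Among synthesis genes, Rrm2, the S-phase subunit of ribonucleotide reductase, had 68.8 CPM in Diff.Spg3, 182 CPM in pre.L and 34.8 CPM in L, whereas Tyms, which makes thymidylate, had 72.9 CPM in Diff.Spg3, 19.8 CPM in pre.L and 3.52 CPM in L. Pcna, the sliding clamp, was within 2-fold of both neighbours, with 97.2 CPM in Diff.Spg3, 113 CPM in pre.L and 85.8 CPM in L.

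Cyclins and their partners were split. Ccne2, the cyclin of the G1 to S step, had 139 CPM in Diff.Spg3, 317 CPM in pre.L and 123 CPM in L, and Cdk2 had 44.8 CPM in Diff.Spg3, 92.5 CPM in pre.L and 84.0 CPM in L. Ccnd1 had 298 CPM in Diff.Spg3, 53.9 CPM in pre.L and 4.84 CPM in L and Ccna2, the S and G2 cyclin, 253 CPM in Diff.Spg3, 36.9 CPM in pre.L and 29.5 CPM in L. Of 12 genes of this list, 4 were at least 2-fold higher than in Diff.Spg3 (Ccne2, Cdk2, Cdkn2c and Cdkn2d) and 4 lower (Ccnd1, Cdk4, Ccna2 and E2f3). Against L, 2 of 10 were higher (Ccnd1 and Ccne2) and 0 lower.

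Most mitotic genes were lower in pre.L than in Diff.Spg3, and some were also lower than in L. Of 24 G2/M genes, 13 were at least 2-fold lower in pre.L than in Diff.Spg3 and 3 higher, with a median of -1.15. Against L, 9 of 22 were lower, 1 higher and 12 within 2-fold. The median against L was -0.13, beside -0.10 for all genes, so the list as a whole was not lower than in L. Plk1, a mitotic kinase, had 0 UMIs in the 482 pre.L cells, against 349 UMIs (117 CPM) in Diff.Spg3 and 27 UMIs (11.9 CPM) in L. With its 0 set to a floor of 3 counts over the stage, Plk1 was 70.6-fold lower in pre.L than in Diff.Spg3 and 7.19-fold lower than in L. The exact counting intervals of its log2 ratios reach up to -5.84 over Diff.Spg3 and -2.45 over L, which are smaller differences. Ccnb1, the mitotic cyclin, had 271 CPM in Diff.Spg3, 12.7 CPM in pre.L and 60.7 CPM in L, and Cdk1, its kinase, had 128 CPM in Diff.Spg3, 24.8 CPM in pre.L and 99.0 CPM in L. All 3 were lower in pre.L than on either side. Cenpe, Cdc20, Aurka, Kif20a, Ube2c, Ccnb2 and Cks2 were likewise at least 2-fold lower than in both neighbours. Top2a, Bub1 and Kif23 were higher than in Diff.Spg3. Top2a, the topoisomerase of replicating and dividing cells, had 588 CPM in Diff.Spg3, 1225 CPM in pre.L and 821 CPM in L, Bub1, a spindle checkpoint kinase, had 108 CPM in Diff.Spg3, 416 CPM in pre.L and 372 CPM in L, and Kif23, a motor of cytokinesis, had 123 CPM in Diff.Spg3, 326 CPM in pre.L and 76.1 CPM in L.

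Genes of spermatogonia were lower in pre.L than in Diff.Spg3 and still above L. Of 10 measured members, 8 were at least 2-fold lower than in Diff.Spg3 and 0 higher (median -2.71), and 5 of 6 were at least 2-fold higher than in L (median 2.92). Kit, the receptor of differentiating spermatogonia, had 164 CPM in Diff.Spg3, 67.2 CPM in pre.L and 1.76 CPM in L. Uchl1 had 549 CPM in Diff.Spg3, 80.4 CPM in pre.L and 11.9 CPM in L, and Crabp1 had 388 CPM in Diff.Spg3, 46.8 CPM in pre.L and 5.28 CPM in L. Rhox13, an X-linked homeobox gene, differed from these with 151 CPM in Diff.Spg3, 295 CPM in pre.L and 138 CPM in L. Zbtb16, a marker of undifferentiated spermatogonia, had 0 UMIs in pre.L against 69 in Diff.Spg3, which makes it 14.0-fold lower at the same floor. The counting interval of its log2 ratio reaches up to -3.47, a smaller difference. With cells above 5% mitochondrial UMIs left out of both stages, the list's median against Diff.Spg3 was -1.82 and the log2 ratio of Kit was -0.30, in place of -1.29, and that of Dmrt1 was -0.97 in place of -1.83. That filter also changed the mix of earlier and later pre.L cells, as given above.

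Most cohesin and axis genes were within 2-fold of their leptotene level. Of the 8 meiotic members, 7 were at least 2-fold higher in pre.L than in Diff.Spg3 and 0 lower, with a median log2 ratio of 2.48 against -0.04 for all genes. Against L, 2 were higher (Rec8 and Rad21l) and 0 lower, with a median of 0.12. Sycp3, the core of the axis, had 449 CPM in Diff.Spg3, 2513 CPM in pre.L and 3232 CPM in L, and Hormad1 had 138 CPM in Diff.Spg3, 778 CPM in pre.L and 880.1 CPM in L. Smc1b, the meiotic SMC subunit, had 597 CPM in Diff.Spg3, 1759.9 CPM in pre.L and 1446 CPM in L. The 2 meiotic kleisins, which close the cohesin ring, were the members higher in pre.L than in L: Rec8 is given above, and Rad21l had 4.68 CPM in Diff.Spg3, 71.0 CPM in pre.L and 16.7 CPM in L. In the earlier pre.L cells alone (cluster 29, described below) the list's median against Diff.Spg3 was 1.79. The log2 ratios over L in these cells were -1.62 for Sycp2, -0.96 for Sycp3 and 5.99 for Rec8, in place of -0.84, -0.36 and 5.34. Among cohesin genes also used in mitosis, Rad21, the kleisin of somatic cells, had 145 CPM in Diff.Spg3, 24.8 CPM in pre.L and 17.2 CPM in L, whereas Nipbl, the loader, had 57.1 CPM in Diff.Spg3, 499 CPM in pre.L and 488 CPM in L. Esco2, which acetylates cohesin during S phase, had 211 CPM in Diff.Spg3, 735 CPM in pre.L and 179 CPM in L, a log2 ratio of 1.80 against Diff.Spg3 and 2.04 against L. Of that list of 10, 3 were higher (Smc3, Nipbl and Esco2) and 1 lower (Rad21) than in Diff.Spg3, and 2 higher (Smc3 and Esco2) and 0 lower than in L.

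All 6 genes of the central region of the synaptonemal complex, which zips paired chromosomes, were at least 2-fold higher in pre.L than in Diff.Spg3, with a median of 1.97. Against L, 1 was higher (Syce1) and 0 lower, with a median of -0.13. Sycp1, the transverse filament, had 498 CPM in Diff.Spg3, 1234 CPM in pre.L and 2374 CPM in L. Tex12, whose promoter is shown above, had 154 CPM in Diff.Spg3, 864 CPM in pre.L and 666 CPM in L, and 4930447C04Rik, also called Six6os1, had 159 CPM in Diff.Spg3, 655 CPM in pre.L and 1031 CPM in L. Sycp1 was thus the member whose level in pre.L lay farthest below L (log2 -0.94).

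The genes that make double-strand breaks did not share 1 pattern. Compared with Diff.Spg3, 7 of 9 were at least 2-fold higher and 0 lower (median 2.11), and compared with L, 5 were higher and 2 lower (median 1.55). Spo11, the nuclease that cuts, had 9.69 CPM in Diff.Spg3, 55.6 CPM in pre.L and 222 CPM in L, and its partner Gm960, also called Top6bl, had 10.0 CPM in Diff.Spg3, 49.0 CPM in pre.L and 103 CPM in L. Both were lower in pre.L than in L. The accessory genes that mark the axis for cutting were higher in pre.L than in L. Mei1 had 23.1 CPM in Diff.Spg3, 90.3 CPM in pre.L and 14.1 CPM in L, Ccdc36 (Iho1) had 19.4 CPM in Diff.Spg3, 118 CPM in pre.L and 31.2 CPM in L, Rec114 had 54.1 CPM in Diff.Spg3, 72.7 CPM in pre.L and 15.0 CPM in L and Mei4 had 26.7 CPM in Diff.Spg3, 42.4 CPM in pre.L and 8.80 CPM in L. Ankrd31, which acts with REC114, was within 2-fold of L, with 88.2 CPM in Diff.Spg3, 301 CPM in pre.L and 392 CPM in L. With L cells of the border cluster 20 left out, the list's median against L was 2.27, and in pre.L cells of cluster 29 alone the log2 ratio of Spo11 over Diff.Spg3 was 0.07.

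Of 15 measured genes of strand exchange and its loading, 8 were at least 2-fold higher in pre.L than in Diff.Spg3 and 0 lower (median 1.38). In the comparison with L, 3 of 16 were higher and 2 lower (Meiob and Mnd1). Dmc1, the meiotic recombinase, had 53.5 CPM in Diff.Spg3, 327 CPM in pre.L and 306 CPM in L. Meiob, which binds resected DNA, had 8.69 CPM in Diff.Spg3, 132 CPM in pre.L and 313 CPM in L, and Rad51ap2 had 10.4 CPM in Diff.Spg3, 157 CPM in pre.L and 247 CPM in L. Brca2 and its meiotic partner Hsf2bp were higher than in Diff.Spg3 by log2 ratios of 1.74 and 2.93.

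Telomere attachment genes, which tie chromosome ends to the nuclear envelope, were higher than in Diff.Spg3 in 7 of 7 measured members, with a median of 2.72, and against L 2 of 7 were higher (Majin and Ccdc155) and 0 lower. Terb1 had 15.7 CPM in Diff.Spg3, 194 CPM in pre.L and 205 CPM in L, Majin had 8.02 CPM in Diff.Spg3, 72.7 CPM in pre.L and 34.8 CPM in L and Spdya, the activator of CDK2 at telomeres, had 31.4 CPM in Diff.Spg3, 354 CPM in pre.L and 249 CPM in L. Ccdc155 is the older name of Kash5, whose own symbol matched no row of the files.

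**Figure D2:**
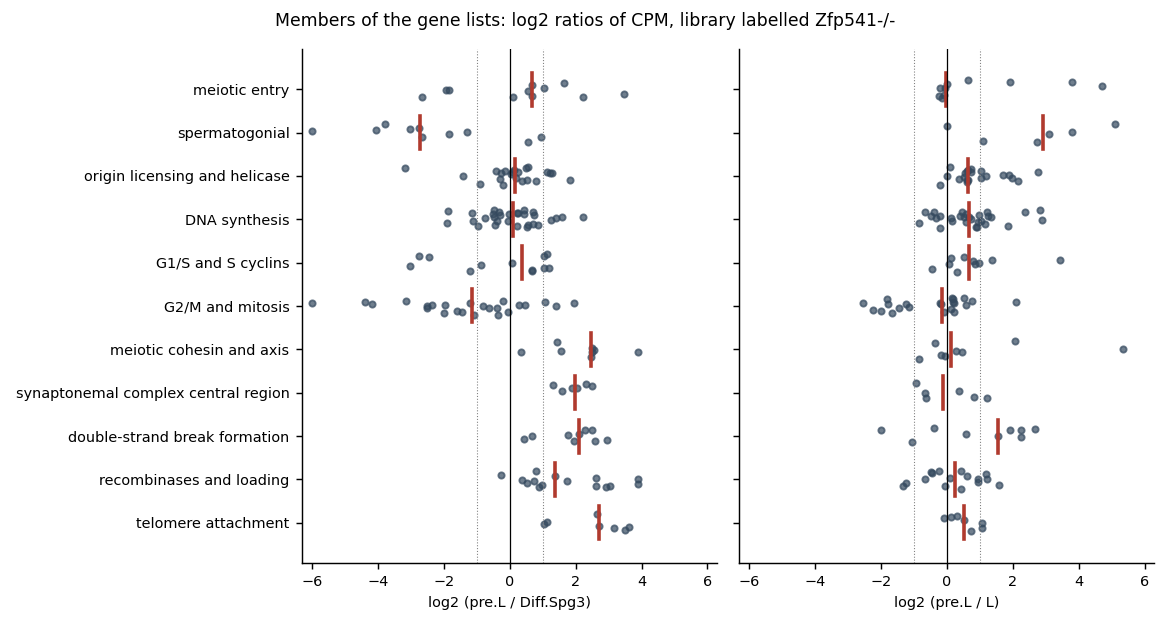
Each point is 1 member gene of a list with at least 20 CPM in the higher stage, placed at its log2 ratio of CPM (pre.L over Diff.Spg3 on the left, pre.L over L on the right; values beyond 6 in size are drawn at 6). Red bars are list medians and dotted lines mark 2-fold; the 5 lists of meiotic prophase lie to the right against Diff.Spg3, with medians of 1.38 to 2.72, while the G2/M list has a median of -1.15.

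Against Diff.Spg3, the remaining lists had both higher and lower members or few measured ones, except for DNA methylation and chromatin genes. Histone variants and linker histones gave 5 higher and 1 lower of 13 against Diff.Spg3, and 5 higher and 0 lower against L. Hist1h2aa, a testis H2A variant, had 294 CPM in Diff.Spg3, 896 CPM in pre.L and 290.4 CPM in L, and such clustered histone genes are close copies whose counts may be split. DNA methylation and chromatin genes gave 6 lower and 0 higher of 10 against Diff.Spg3, and 4 higher and 0 lower of 9 against L. Without cells above 5% mitochondrial UMIs the median against Diff.Spg3 was -0.53 in place of -1.24 for this list, and 1.37 in place of 0.71 for the histones. Dnmt1, the maintenance methyltransferase, had 381 CPM in Diff.Spg3, 226 CPM in pre.L and 49.3 CPM in L, and Dnmt3b had 60.2 CPM in Diff.Spg3, 3.30 CPM in pre.L and 7.04 CPM in L. The piRNA pathway gave 3 higher and 4 lower of 14 against Diff.Spg3 and 0 higher and 3 lower of 12 against L; Mybl1, which activates pachytene piRNA genes, had 7.02 CPM in Diff.Spg3, 94.1 CPM in pre.L and 126 CPM in L. Genes of p53 and apoptosis gave 2 higher and 4 lower (Trp53, Ccng1, Bax and Chek2) of 11 against Diff.Spg3 and 3 higher and 1 lower of 8 against L. Atr, the checkpoint kinase of unsynapsed axes, had 134 CPM in Diff.Spg3, 607 CPM in pre.L and 692 CPM in L. Of 6 genes reported in the ZFP541 protein complex, 4 were measured against Diff.Spg3 with 1 higher (Zfp541) and 1 lower (Hdac2), and Kctd19, the partner of ZFP541, had 11.7 CPM in Diff.Spg3, 8.81 CPM in pre.L and 43.6 CPM in L.

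Besides the lists, genes were named by rank among those of at least 50 CPM. The highest ratios against Diff.Spg3 belonged to H2-Ab1, Pbx3, Aph1c, Stxbp5l, Nacad, Rbpms2, H2-D1, Fbxo47, Tarsl2 and Aph1b, with log2 ratios of 4.30 to 5.64. Their order depended on the processing: H2-Ab1 was at 8.33 and Fbxo47 at 6.84 with thinned cells, Fbxo47 was at 3.15 in cluster 29 alone, and Stxbp5l was at 3.56 without cells above 5% mitochondrial UMIs. H2-Ab1, a major histocompatibility class II chain, had 2.67 CPM in Diff.Spg3, 141 CPM in pre.L and 73.9 CPM in L. H2-D1, a class I chain, had 16.7 CPM in Diff.Spg3, 375 CPM in pre.L and 468 CPM in L. Macrophage genes beside them were at or near 0, as given above. Pbx3, a homeobox factor, had 9.69 CPM in Diff.Spg3, 439.8 CPM in pre.L and 222 CPM in L. The lowest ratios against Diff.Spg3 belonged to Plk1, Ier5l, Ccnb1, Mex3d, Aurkb, Cenpa, Dnmt3b, Rras, Ppp1r14a and Galk1. Cenpa, the centromeric histone, had 502 CPM in Diff.Spg3, 29.2 CPM in pre.L and 25.5 CPM in L.

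Against L, the 10 highest genes were Klf2, Kit, Vegfb, Stra8, Nudt17, Nrtn, Syt7, Dmrt1, Bcl7c and Cdkn2a. Cdkn2a, a cell cycle inhibitor locus, had 378 CPM in Diff.Spg3, 328 CPM in pre.L and 23.8 CPM in L, so pre.L lay close to Diff.Spg3. The 10 lowest were Zfy2, 1700080O16Rik, Glipr1l2, Tmem29, Zfy1, Srpk2, 1700020N01Rik, Cgrrf1, Thnsl1 and Rwdd4a. Zfy1 and Zfy2, the zinc finger pair of the Y chromosome, stood alike: Zfy1 had 5.68 CPM in Diff.Spg3, 9.91 CPM in pre.L and 107 CPM in L, and Zfy2 had 6.68 CPM in Diff.Spg3, 11.0 CPM in pre.L and 161 CPM in L. They are close copies of each other, so their separate values are uncertain, and the log2 ratios of pre.L over L were -3.40 and -3.83.

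Among 7594 genes measured in either comparison, 294 were at least 2-fold higher in pre.L than in both neighbours, 260 lower than both, 119 in between with L highest and 301 in between with Diff.Spg3 highest, while 3856 were within 2-fold of both. The 15 genes that stood out most above both neighbours were Rhd, Fgf11, Tarsl2, Aph1b, Stra8, Nacad, Lmna, Zfyve19, Flot1, Rad21l, Cdip1, Kmt5c, Atp1b2, Madd and M1ap. Fgf11, an intracellular member of the fibroblast growth factor family, had 3.68 CPM in Diff.Spg3, 74.3 CPM in pre.L and 8.36 CPM in L. Rhd, a relative of ammonium channels, had 7.02 CPM in Diff.Spg3, 65.0 CPM in pre.L and 6.60 CPM in L, and Lmna, which encodes the A-type lamins, had 10.4 CPM in Diff.Spg3, 102 CPM in pre.L and 22.4 CPM in L. Kmt5c, a histone H4 methyltransferase, had 22.4 CPM in Diff.Spg3, 98.0 CPM in pre.L and 23.8 CPM in L. M1ap, a gene needed for male meiosis whose promoter is shown above, had 82.2 CPM in Diff.Spg3, 326 CPM in pre.L and 57.2 CPM in L. The 10 genes lowest relative to both neighbours were Plk1, Tmem29, Ccnb1, Rest, Leo1, Bub3, Triobp, Cdk1, Ddx54 and Wdr60, so 4 of them (Plk1, Ccnb1, Bub3 and Cdk1) belong to mitosis. Bub3, of the spindle checkpoint, had 95.6 CPM in Diff.Spg3, 12.7 CPM in pre.L and 52.4 CPM in L, and Rest, a repressor of neuronal genes, had 86.2 CPM in Diff.Spg3, 13.8 CPM in pre.L and 64.2 CPM in L. Aph1b and Aph1c are near-identical copies and are reported as uncertain.

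**Figure D3:**
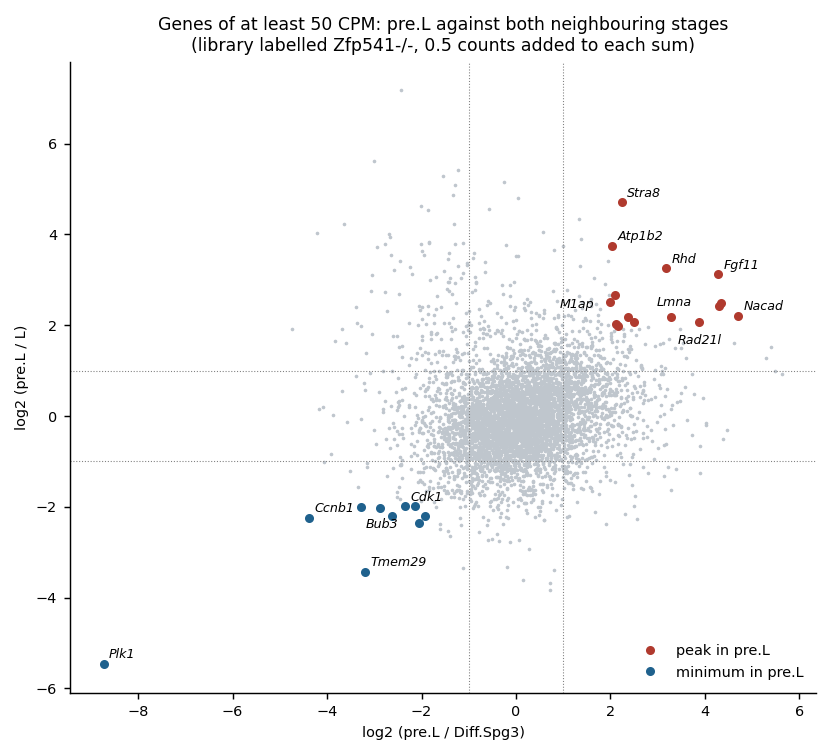
Each grey point is 1 gene of at least 50 CPM in 1 of the 3 stages, at its log2 ratio in pre.L over Diff.Spg3 (horizontal) and over L (vertical); dotted lines mark 2-fold. Red points are the 15 genes that stand highest above both neighbours, with Stra8 at 2.23 and 4.71, and blue points are the 10 lowest, with Plk1 placed by the 0.5 counts added to its 0 UMIs.

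As a whole profile, pre.L was nearest to its neighbours on either side. Across 9092 genes, which are not independent replicates, the correlation of log2 levels was r = 0.845 with Diff.Spg3, 0.881 with L and 0.811 with zygotene. The order of the neighbours differed between the finer clusters described next: cluster 20, the later one, had r = 0.739 with Diff.Spg3 and 0.896 with L, and cluster 29 had 0.875 with Diff.Spg3 and 0.846 with L. For 453 genes at least 4-fold higher in L than in Diff.Spg3, pre.L had covered a median of 0.62 of the log2 difference, and for 669 genes at least 4-fold lower in L it had covered 0.49.

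The authors' finer clustering divides the pre.L cells of this library into 238 cells of cluster 29, earlier in the deposited pseudotime, and 244 cells of cluster 20, later in it. Cluster 20 also holds 243 cells annotated L from this library, so the border between pre.L and L runs through it. Cells of cluster 20 had a median of 2428 UMIs and those of cluster 29 had 4277. Of 6595 genes, 369 (5.6%) were at least 2-fold higher in cluster 20 than in cluster 29 and 1048 (15.9%) lower, and the clusters were made from these same genes. Stra8 had 421 CPM in cluster 20 and 1671 CPM in cluster 29, Rec8 had 2.82 CPM in cluster 20 and 41.5 CPM in cluster 29, and Kit had 5.65 CPM in cluster 20 and 106 CPM in cluster 29. These 3 genes thus belonged mainly to the earlier cells, but most entry genes did not. Of 11 meiotic entry genes, 0 were at least 2-fold higher in cluster 20 and 3 lower (Stra8, Dmrt1 and Sohlh1), with a median of -0.14. Of the 6 pre.L markers, 0 were higher and 2 lower (Stra8 and Rec8), with a median of 0.11. Spo11 had 127 CPM in cluster 20 and 9.93 CPM in cluster 29, Meiob had 251 CPM in cluster 20 and 55.0 CPM in cluster 29, and Sycp3 had 3846 CPM in cluster 20 and 1661 CPM in cluster 29. Several break formation and telomere genes were higher in the later cells: 5 of 9 break formation genes, 5 of 7 telomere genes and 5 of 16 recombinase genes were at least 2-fold higher in cluster 20, with 1, 0 and 1 lower. Of 8 meiotic cohesin and axis genes, 2 were higher (Sycp2 and Sycp3) and 1 lower (Rec8). Of 21 origin licensing genes, 0 were higher in cluster 20 and 1 lower (Mcm2). Of 29 DNA synthesis genes, 1 was higher and 4 lower, which is near the shares of all genes (5.6% and 15.9%). Histone variants were lower in cluster 20 in 7 of 13 genes and higher in 0. Of 20 measured G2/M genes, 5 were higher in cluster 20 (Mki67, Bub1, Cenpf, Ube2c and Hmmr) and 1 lower (Ccnb2), with a median of 0.58. The list summed to 6214 CPM in cluster 20 and 3609 CPM in cluster 29.

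When the 482 cells were ordered by the deposited pseudotime and divided into 3 parts of 160 or 161 cells, Stra8 had 1736, 1112 and 280.0 CPM from the first part to the last, and Kit had 135, 23.3 and 0 CPM. Rec8 had 52.0, 7.16 and 4.44 CPM. All 3 were highest in the first part. Gm4969 and Prdm9 were not: Gm4969 had 81.7, 98.5 and 97.8 CPM, and Prdm9 had 155, 217 and 251 CPM. Over the same parts Sycp3 had 1452, 2855 and 3993 CPM, Meiob had 35.9, 152 and 278 CPM and Spo11 had 9.90, 50.2 and 144 CPM. These 3 were highest in the last part. Mcm6 stayed level, with 181, 150.5 and 173 CPM, and its intervals overlapped throughout, while Hells had 1089, 1517 and 2089 CPM. Pseudotime was derived from the same expression values, so these courses are a description of its order.

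**Figure D4:**
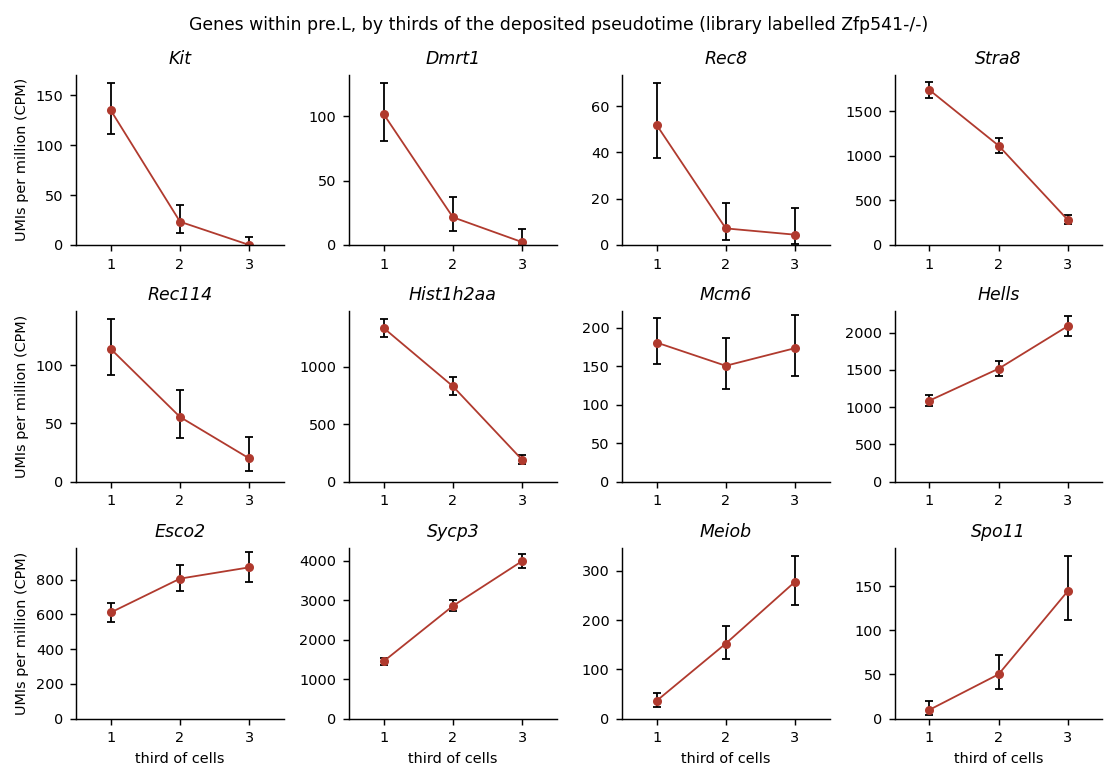
Level of 12 genes (CPM, points, with 95% exact Poisson intervals for counting error) in the first, second and last part of the 482 pre.L cells ordered by the deposited pseudotime, in the library labelled Zfp541-/-. Stra8 and Kit are highest in the first part, Sycp3, Meiob and Spo11 in the last, and the intervals of Mcm6 overlap throughout.

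To compare cells of unequal depth, each cell was thinned to 1832 UMIs, which left out 42 pre.L, 13 Diff.Spg3 and 135 L cells as shallower. After thinning, Stra8 was seen in 31.5% of Diff.Spg3 cells (27.6 to 35.7), 69.8% of pre.L cells (65.2 to 74.0) and 6.56% of L cells (4.89 to 8.58), and before thinning in 61.3%, 78.0% and 9.18%. In late pachytene cells, which should lack it and whose median was 23690 UMIs, 0.308% of thinned cells held a Stra8 UMI, and 2.47% before thinning. Thinning also dilutes stray UMIs in these deep cells, so their thinned shares may understate stray UMIs in shallow cells. Prdm9 was seen in 2.66%, 34.3% and 10.2% of thinned cells of Diff.Spg3, pre.L and L (before thinning 12.4%, 51.0% and 14.5%). In late pachytene cells it was seen in 0.823% (before thinning 10.5%). Esco2 was seen in 29.8%, 75.2% and 25.4% (before thinning 61.7%, 89.2% and 31.0%), and in 1.75% of late pachytene cells (before thinning 17.8%). Within pre.L, thinned Stra8 was in 44.1% of cells of cluster 20 and 93.4% of cells of cluster 29. Across the 440 thinned pre.L cells, which share 1 library, Stra8 UMIs were correlated with the sum of leptotene-zygotene markers (without Prdm9) at a Spearman rho of -0.49, and with markers of differentiating spermatogonia (without Stra8) at 0.35. The sum of S-phase markers had a rho of 0.20 with the leptotene-zygotene sum and -0.15 with Stra8. These are sparse counts, and the last 2 values are too weak to be read as a relation. Of the 482 unthinned cells, 376 held a Stra8 UMI and 480 a Sycp3 UMI, and 374 held both. Since nearly all cells held Sycp3, the number with both cannot show a relation between the 2 genes.

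Genes of the X chromosome supplied 1.96% of UMIs in Diff.Spg3, 2.53% in pre.L (2.51 to 2.56) and 2.65% in L, before 0.964% in zygotene and 0.141% in early pachytene, where the sex chromosomes are known to be silenced. The Y chromosome supplied 0.0772% in Diff.Spg3, 0.0854% in pre.L and 0.146% in L. Of 237 measured X-linked genes, 27.0% were at least 2-fold higher in pre.L than in Diff.Spg3 and 16.0% lower, beside 16.1% and 18.5% of 6861 autosomal genes. Against L, 14.0% of 250 X-linked genes were higher and 22.8% lower, beside 12.4% and 13.5% of 6633 autosomal genes. Median log2 ratios of X-linked genes were 0.14 against Diff.Spg3 and -0.21 against L.

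**Figure D5:**
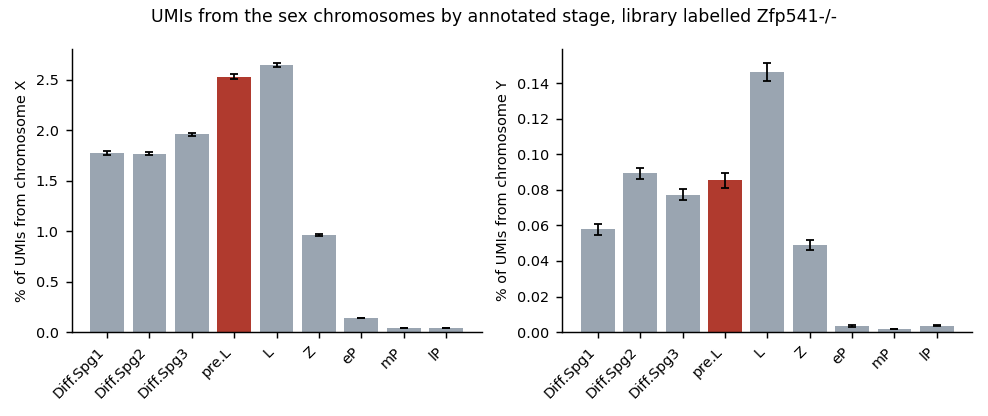
Share of UMIs from genes of the X (left) and Y chromosome (right) in 9 annotated stages of the library labelled Zfp541-/-, with 95% exact binomial intervals for counting error; pre.L is in red. The X share in pre.L, 2.53%, lies between those of Diff.Spg3 and L, ahead of the low values from zygotene on.

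The 12 pre.L cells of the WT library held 25259 UMIs in all, with a median of 1685 per cell, against 3573 in the library labelled Zfp541-/-. With 1 library per genotype and this depth, only sums are given. The 6 pre.L markers summed to 3136 CPM in the library labelled Zfp541-/- (5697 UMIs, interval 3055 to 3219) and to 3048 CPM in WT (77 UMIs, interval 2406 to 3810), a log2 ratio of 0.04 (-0.28 to 0.38). Stra8 stood at 1184 CPM in the library labelled Zfp541-/- and at 1544 CPM (39 UMIs, 1098 to 2111) in WT. Leptotene-zygotene markers summed to 7113 CPM in the library labelled Zfp541-/- (6991 to 7236) and 5820 CPM in WT (4917 to 6840). Elongating spermatid markers, which pre.L cells should lack, gave 0 UMIs in the library labelled Zfp541-/- and 12 UMIs in WT (5 of Prm1, 2 of Prm2, 2 of Tnp1 and 3 of Tnp2), and their part in the WT sums was not tested.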

How the data were processed

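Single-cell RNA-seq (10x Genomics) was made from 1 library per genotype. Per the submitters' processing notes, reads were handled with Cell Ranger 3.1.0 on build mm10 and cells with Seurat 3.2.0. The authors deposited whole-number UMI counts per gene and barcode and a cell table. Per the file headers, that table holds each cell's stage, cluster, mitochondrial and ribosomal percent, and a pseudotime score, whose scale the header does not explain and whose order alone was used. The annotated cells had at least 1000 genes and up to 10 percent mitochondrial UMIs. No doublets were removed here; cells above the 95th percentile of UMIs were left out as an alternative.

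Counts were summed per stage with Python 3.11.15, numpy 2.4.6, pandas 2.3.3 and scipy 1.17.1, and scaled to CPM. Genes with at least 20 CPM in the higher stage were counted as differing at 2-fold after adding 0.5 counts to each sum. No test was made, since cells of 1 library are not replicates; Poisson, conditional binomial and Clopper-Pearson intervals are exact at 95% and cover counting error only. A sum of 0 was set to a floor of 3 counts over the stage. For shares and correlations, cells were thinned to 1832 UMIs. Genes were named by rule at 50 CPM: the 10 highest and 10 lowest ratios against each neighbour, the 15 highest and 10 lowest against both, and list members. The members and the lists were chosen with earlier results of these data known. The calculation was tested on simulated data. Alternatives changed the CPM minimum, scaling, counts added, depth, weight of cells, mitochondrial share and the cells taken as pre.L or L.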

Additional observations from a re-analysis of the deposited data

Results flagged for a closer look

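Stra8 was also present outside the annotated cells. The 2747 barcodes of the library labelled Zfp541-/- that have counts and no annotation held 1377 Stra8 UMIs, a level of 129.7 CPM (122.9 to 136.7), in 500 barcodes, against 67 UMIs, or 2.93 CPM (2.27 to 3.72), in the 4219 such barcodes of the WT library. Of the other 5 pre.L markers, 4 were likewise higher there: in the library labelled Zfp541-/- Hells stood at 377 CPM, Mcm6 at 48.7 CPM, Prdm9 at 13.8 CPM and Gm4969 at 9.98 CPM, and in WT Hells stood at 18.6 CPM, Mcm6 at 3.98 CPM, Prdm9 at 0.524 CPM and Gm4969 at 0.0874 CPM. Rec8 stood at 4.14 CPM in the library labelled Zfp541-/- and 9.53 CPM in WT. These barcodes had a median of 1072 UMIs in the library labelled Zfp541-/- and 4400 UMIs in WT, and mitochondrial UMIs made up 11.7% of their total in the library labelled Zfp541-/- and 0.838% in WT. They enter no count of pre.L cells, and what cells they hold was not tested.

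Bub1, the spindle checkpoint kinase, was the subject of 1 of 702 ratios between stages set side by side for the libraries, and the 1 whose intervals lay on opposite sides of equal. In the library labelled Zfp541-/- its log2 ratio of pre.L over L had an interval of 0.02 to 0.30, and in WT it had an interval of -3.17 to -0.13, from 6 UMIs in pre.L and 17 in L. The log2 ratios themselves were 0.16 in the library labelled Zfp541-/- and -1.46 in WT, and their difference was not tested. The sign of the first depended on the cells taken. In the library labelled Zfp541-/- the ratio was -0.51 without cells above 5% mitochondrial UMIs and -0.53 with pre.L cells of cluster 29 only.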

How the results depend on the processing

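No result changed direction at 2-fold or more under any alternative. The counts followed the CPM minimum. With at least 50 CPM, 714 genes were lower in pre.L than in Diff.Spg3, 518 higher and 532 lower than in L, and with at least 5 CPM these numbers were 2310, 1504 and 1643. Scaling by the median of ratios moved the median ratio over L of all genes to 0.00, in place of -0.10. Over the 9 alternatives chosen at the start, 133 of 4599 log2 ratios of named and listed genes moved by over 1.5 times, and 2345 of 2412 values of at least 2-fold stayed so. Of 302 list medians under them 3 moved by over 1.5 times. Part of this stability was built in: a changed CPM minimum cannot move a gene's ratio, and rescaling shifts all ratios of a comparison alike. Leaving out cells above 5% mitochondrial UMIs took out 62.2% of pre.L cells of cluster 29 and 85.7% of those of cluster 20, so their mix changed as well. This filter moved 38 of 260 gene ratios over Diff.Spg3 and 38 of 251 over L. It kept 961 of 1173 genes higher and 875 of 1309 lower than in Diff.Spg3, and 733 of 858 and 733 of 960 against L. The correlation of Stra8 with leptotene-zygotene markers was -0.38 with cells thinned to 916 UMIs, in place of -0.49 (the cause was not tested), and -0.44 in the 124 cells left without those above 5% mitochondrial UMIs. Restricting pre.L to cluster 29, or leaving cluster 20 out of L, was chosen after seeing the data. With cluster 29 only, 39 of 260 log2 ratios over Diff.Spg3 and 31 of 251 over L moved by over 1.5 times, as did 3 and 1 list medians, and with cluster 20 left out of L 34 of 251 ratios over L and 1 list median did. Thinned to 1560 UMIs, likewise, the summed markers had a log2 ratio of 0.20 (-0.21 to 0.64) between the library labelled Zfp541-/- and WT. Low UMI counts limit genes under 20 CPM and the 12 WT cells. No paired analysis was possible because each genotype has 1 library and no test was made.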

Other observations

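Across the 9 stages from the first differentiating spermatogonia to late pachytene, the genes whose log2 levels followed that of Stra8 most closely were Npm1, Wdhd1, Ctu2, Dnajc9 and Swap70, with Pearson correlations of 0.986 to 0.981 over 9 stages of 1 library, given as a description. Wdhd1, a replication fork protein, had 93.9 CPM in Diff.Spg3, 117 CPM in pre.L and 26.0 CPM in L. Swap70 had 35.1 CPM in Diff.Spg3, 91.9 CPM in pre.L and 15.8 CPM in L. Of 482 pre.L cells in the library labelled Zfp541-/-, 86 held a Kit UMI and 85 of these also held a Stra8 UMI, while 168 held a Meiob UMI and 17 held both Kit and Meiob. Stra8 was seen in 376 of all 482 cells. Meiob was seen in 19.8% of cells with Kit and 38.1% of cells without it. These cells were not thinned and the finer clusters differ in depth, and the part of depth in these counts was not tested. The 21 promoters found for G2/M genes held the word CCAAT, on either strand, in 19 cases (90.5%), beside 40.2% of the promoters of measured genes.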
